A study of Mus musculus with 6 samples.

Results

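The genes that write, copy, protect and remove DNA methylation were examined in oocytes of naturally aged mice with and without aminophylline. All 9 symbols looked up by name in the deposited expression table were present among its 25631 genes: Dnmt1, Dnmt3a, Dnmt3b, Dnmt3l, Tet1, Tet2, Tet3, Uhrf1 and Dppa3. The rule selects by gene name, and the list of names was drawn up with earlier results of these data known. RNA was sequenced in 3 control libraries and 3 aminophylline libraries. Both groups were ICR mice, 14 months old when the drinking regimen began and injected with eCG before collection. Oocytes were punctured from large antral follicles. The aminophylline group drank 4.0 mM aminophylline, a nonspecific phosphodiesterase inhibitor, for 1 week and plain water for 3 weeks, while the control group drank plain water for 4 weeks. The labels call the controls aged and untreated, and the number of mice and oocytes behind a library is not given in the sources used here, so that p-values measure only the spread between these libraries.

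Methylation of cytosine in CpG pairs is laid down anew by DNMT3A and DNMT3B and copied after replication by DNMT1, which UHRF1 brings to hemimethylated DNA. In the growing mouse oocyte, de novo methylation depends on DNMT3A and its catalytically inactive partner DNMT3L, and it sets the maternal imprints. The TET enzymes oxidize methylcytosine, and TET3 is the maternal member that acts in the zygote. DPPA3, also called STELLA or PGC7, is a maternal protein that protects the maternal genome from TET3 after fertilization and keeps UHRF1 out of the oocyte nucleus. Messenger RNA levels, and neither protein nor methylation, were measured here.

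Dnmt1 and Uhrf1, the pair that copies methylation, had the largest estimated differences of the 6 members tested, and their start regions are described first. Promoter windows of 300 bases around a transcription start were taken from RefSeq on GRCm38.p6 for 8 of the 9 members, in 15 windows, and Dppa3 had no entry. The outermost Dnmt1 window and the most CpG-rich window of each gene are printed, with each GC box (GGGCGG, read on either strand) in capitals. A likeness in CpG count between the CpG-rich windows follows from that choice and is no result. The first is chr9:20959839-20960138 on the minus strand, the second chr9:20952574-20952873 on the minus strand and the third chr17:56304063-56304362 on the plus strand.
Dnmt1, outermost start: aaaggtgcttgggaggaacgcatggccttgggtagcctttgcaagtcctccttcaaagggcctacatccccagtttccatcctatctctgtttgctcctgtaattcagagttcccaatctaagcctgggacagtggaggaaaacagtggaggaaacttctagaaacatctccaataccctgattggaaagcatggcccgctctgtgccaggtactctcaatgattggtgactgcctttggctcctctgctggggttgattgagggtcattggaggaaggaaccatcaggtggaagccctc
Dnmt1, CpG-rich start: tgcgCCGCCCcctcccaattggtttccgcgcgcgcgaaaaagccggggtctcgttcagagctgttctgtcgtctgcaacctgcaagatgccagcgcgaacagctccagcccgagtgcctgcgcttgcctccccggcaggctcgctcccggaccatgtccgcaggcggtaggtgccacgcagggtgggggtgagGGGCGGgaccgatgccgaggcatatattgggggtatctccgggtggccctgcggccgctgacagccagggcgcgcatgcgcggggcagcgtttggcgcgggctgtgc
Uhrf1, CpG-rich start: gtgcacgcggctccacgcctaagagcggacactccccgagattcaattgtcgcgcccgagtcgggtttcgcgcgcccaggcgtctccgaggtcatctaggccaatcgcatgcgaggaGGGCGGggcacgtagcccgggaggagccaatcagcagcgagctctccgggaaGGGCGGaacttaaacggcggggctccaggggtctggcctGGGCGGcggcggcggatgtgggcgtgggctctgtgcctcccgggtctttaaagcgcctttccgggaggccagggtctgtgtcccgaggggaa
The outermost Dnmt1 window held 2 CpG pairs and 0 GC boxes, against 33 CpG pairs and 2 GC boxes in the CpG-rich Dnmt1 window. The printed Uhrf1 window held 33 CpG pairs and 3 GC boxes. The windows not printed were poorer, with 12 CpG pairs and 0 GC boxes for Dnmt1 and 12 CpG pairs and 1 GC box for Uhrf1. CpG-rich starts were not particular to this pair, since windows of Dnmt3a held 18, 46 and 47 CpG pairs, Tet2 57, Dnmt3b 30 and Tet3 22. The Tet1 window held 17 and the Dnmt3l windows held 3 to 6. The E2F-type motif TTTNNCGC, searched on both strands, occurred 3 times in the CpG-rich Dnmt1 window and 1 time in the printed Uhrf1 window. Over all 32851 windows of the same length, the median was 7 CpG pairs, 35.7% held a GC box and 5.17% held TTTNNCGC. A motif match describes the letters only, and the expression values pool all starts of a gene.

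Expression was deposited as FPKM, fragments per kilobase of transcript scaled to library size, which allows levels to be compared between genes. Recovered reads on genes ranged from 14014524 in control 2 to 33388801 in control 1, and 9730 to 10476 genes reached an FPKM of 1 in a library. Of 14 oocyte markers, 10 were at 100 FPKM or more in every library, and 9 of 13 granulosa and cumulus markers were under 1 FPKM in all of them. The remaining granulosa and cumulus markers were Cyp19a1 (7.37 to 15.7 FPKM), Nr5a2 (4.43 to 8.53), Cyp11a1 (1.81 to 3.35) and Inha (0.417 to 1.66). Granulosa RNA in the libraries is thus not excluded. All 5 erythrocyte markers found and 9 of 10 theca and stroma markers were under 1 FPKM in every library. The summed level of 11 macrophage markers was 249 FPKM in control 1 and 82.8 to 103 FPKM in the other 5 libraries, and 9 of the 11 were highest in control 1. The sums outside control 1 were almost all C1qb, at 79.2 to 99.8 FPKM there and 72.3 FPKM in control 1. Lyz2, by contrast, was at 66.4 FPKM in control 1 and at most 0.573 FPKM elsewhere. C1qc, at 14.8 FPKM in control 1, rested on 1 read. In such bulk samples, fewer oocytes and less RNA per oocyte cannot be told apart.

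The 9 members spanned more than 4 orders of magnitude. Dppa3 ranked 2 of 25631 genes by mean FPKM, Dnmt1 1122, Dnmt3l 1542, Uhrf1 1673 and Tet3 3204. Dnmt3a ranked 7991, Dnmt3b 10583, Tet1 12408 and Tet2 13718. Neighbours in this order were compared within each library. The order was set by the means of the same 6 libraries, so it is given as a description. Of the 8 neighbour pairs, 7 were in that order in 6 of 6 libraries. Dnmt3l exceeded Uhrf1 in 5 of 6 libraries by a median of 1.18-fold, with a range from 0.727 to 2.11, and these neighbours were not separated beyond their spread. The step from Dppa3 to Dnmt1 was a median of 105-fold (range 62.1 to 210), and that from Tet3 to Dnmt3a 8.10-fold. The step from Dnmt1 to Dnmt3l was small, at 1.27-fold, and it depended on the transcript length that the authors used. With the longest GENCODE transcript as length, Dnmt1 exceeded Dnmt3l in only 2 of 6 libraries, although the order of the 9 means was the same. Dnmt3a was the most length-dependent member, with a mean level of 2.23 FPKM as deposited and 5.72 with that length.

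**Figure D1:**
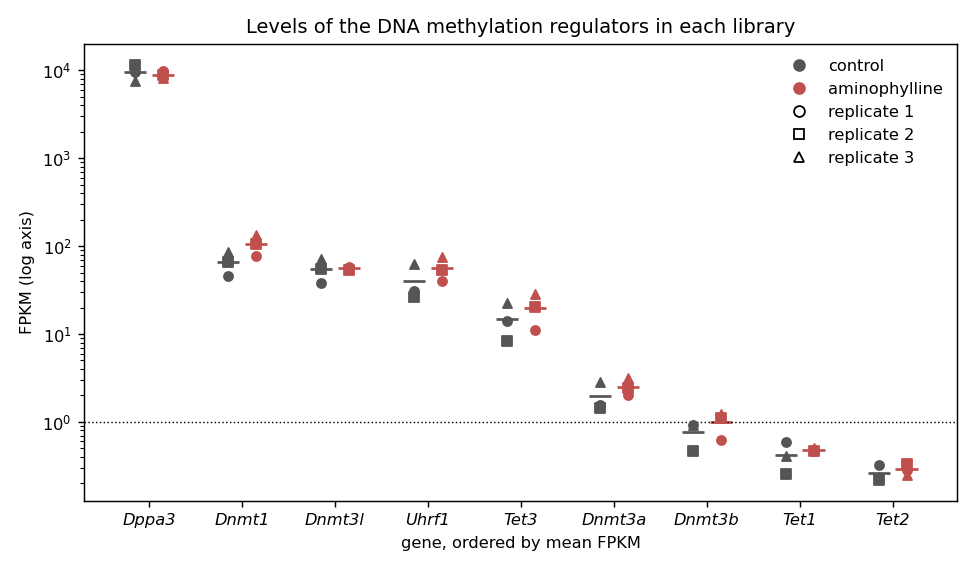
Level of each of the 9 genes in each library, in FPKM on a log axis. Each symbol is 1 library, the horizontal bars are group means and the dotted line marks 1 FPKM. The Dppa3 values lie between 7461 and 11563 FPKM, while Dnmt3b, Tet1 and Tet2 lie at or under about 1 FPKM.

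The comparison of aminophylline with control asked whether treatment of aged mice was accompanied by a different supply of these transcripts in the oocyte. No member passed an adjusted p of 0.05 (limma, Benjamini-Hochberg over the genes tested), and neither did any other gene. Of the 9 members, 6 reached the filter of at least 1 FPKM in 3 of the 6 libraries, and all 6 were above 1 FPKM in every library. The share of the 10340 tested genes called at an adjusted p of 0.05 was 0.0%, with 750 genes at an unadjusted p under 0.05, which is 7.25% of those tested. Dnmt1 was the 1 member under that looser threshold and it was higher, against 4.41% of all tested genes that were higher under it. Positive estimates were found for 5 of the 6 tested members, against 64.8% of all tested genes. Their median log2 fold change was 0.33, and that of all tested genes was 0.10. The 2 groups of libraries overlapped for each of the 9 members, whereas they did not overlap for 12.5% of tested genes.

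Dnmt1, the maintenance methyltransferase (NCBI gene 13433, GRCm38 chr9:20907206-20959888), measured 45.9, 66.1 and 84.7 FPKM in controls 1, 2 and 3. It measured 77.3, 107 and 132 FPKM in aminophylline 1, 2 and 3. The highest control lay above the lowest aminophylline library, and the other aminophylline libraries lay above all controls. The means were 65.6 ± 19.4 and 105 ± 27.5 FPKM (SD, n = 3 each). On the log2(FPKM + 1) scale used for all fold changes given here, the difference was 0.69 (SE 0.250, 95% interval 0.14 to 1.24, limma adjusted p = 0.682). It was under the looser threshold of an unadjusted p of 0.05. Adjusted p-values over the alternatives ran from 0.0588 to 0.999. The exact permutation test on the 6 values gave p = 0.2. Within replicate numbers, Dnmt1 was higher in aminophylline for 3 of 3 numbers, although it is not known whether equal numbers mark pairs. With the replicate number as a block, limma gave a standard error of 0.168 and an adjusted p of 0.0588. Correction of each library for GC content and transcript length lowered the difference to 0.44 (95% interval 0.08 to 0.80, limma adjusted p = 0.476). The GC content of the Dnmt1 transcript was 54.0%, against a median of 48.5% over tested genes. Control 1, the library with the highest macrophage marker sum, had the lowest Dnmt1. Without control 1 the difference was 0.46 and missed the looser threshold, as it also did without aminophylline 2 (0.66) or without aminophylline 3 (0.51). The part of these markers in the difference was not tested.

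Uhrf1, the reader of hemimethylated DNA (NCBI gene 18140, chr17:56303337-56323486), measured 31.1, 26.0 and 62.1 FPKM in the controls and 40.6, 53.7 and 75.7 FPKM with aminophylline. Control 3 lay above 2 of the 3 aminophylline libraries, so the groups overlapped widely. The means were 39.7 ± 19.5 and 56.6 ± 17.8 FPKM, a log2 difference of 0.56 (SE 0.312, 95% interval -0.13 to 1.24, limma adjusted p = 0.721, range over the alternatives 0.174 to 0.999), and the exact permutation test gave p = 0.3. Uhrf1 passed an unadjusted p of 0.05 once the replicate number was a block (95% interval 0.17 to 0.94, limma adjusted p = 0.174). It was also under that threshold with that block after GC and length correction (difference 0.36, 95% interval 0.01 to 0.70, limma adjusted p = 0.358). Without a block, Uhrf1 passed it with library weights, without control 3 (difference 0.92) and without aminophylline 1 (0.77). It missed it when any other library was left out, at 0.31 without control 2 and 0.33 without aminophylline 3. Under the block, both maintenance genes were thus at an unadjusted p under 0.05, as were 9.88% of all tested genes in the higher direction. An adjusted p of 0.05 was reached under the block by 47 genes, 0.455% of those tested, and by no member. The ratio of Uhrf1 to Dnmt1 within a library was 0.677, 0.394 and 0.732 in the controls and 0.524, 0.503 and 0.572 with aminophylline, and these ranges overlapped.

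**Figure D2:**
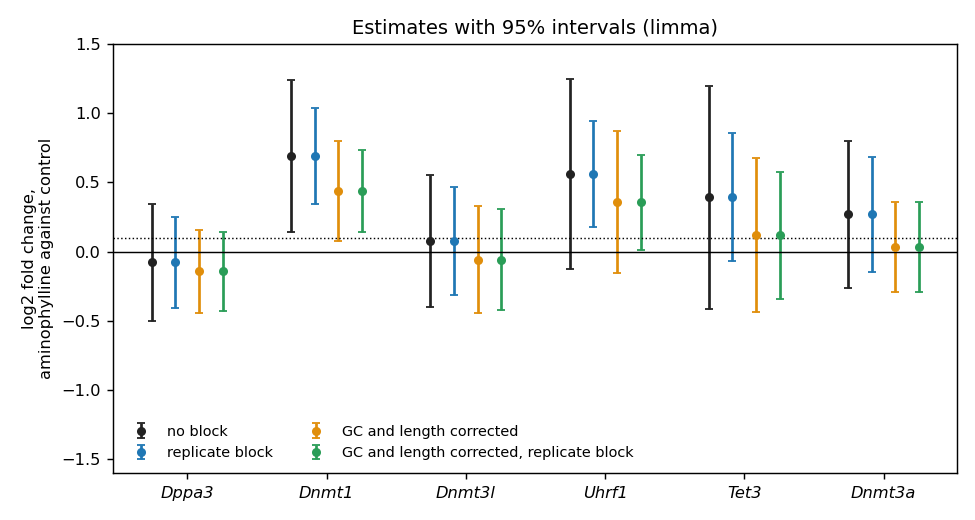
Estimated log2 fold change of the 6 tested genes, aminophylline against control, with 95% intervals from limma under 4 settings. The dotted line is the median of all tested genes, 0.10. The Dnmt1 interval lies above 0 in each setting, and the Uhrf1 interval does so only with the replicate block.

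Among the de novo group, Dnmt3l was the abundant member and its values were closer together with aminophylline than in controls. Dnmt3l, the inactive cofactor (NCBI gene 54427, chr10:78042287-78063622), measured 37.8, 54.8 and 70.5 FPKM in controls and 58.1, 53.8 and 55.1 FPKM with aminophylline. The aminophylline values lay inside the control range, with means of 54.4 ± 16.3 and 55.7 ± 2.23 FPKM. The log2 difference was 0.08 (95% interval -0.40 to 0.55, limma adjusted p = 0.934), and its sign turned under median centring, after GC and length correction and without control 1. A difference in spread between the groups was not tested, and a smaller SD with aminophylline was not particular to Dnmt3l. Among the other members it was smaller for Dppa3, Uhrf1, Dnmt3a, Tet1 and Tet2, and larger for Dnmt1, Tet3 and Dnmt3b. Dnmt3a, the catalytic enzyme of the oocyte (NCBI gene 13435, chr12:3801559-3914443), measured 1.57, 1.45 and 2.85 FPKM in controls and 2.002, 2.41 and 3.13 FPKM with aminophylline. Control 3 again exceeded 2 of the aminophylline libraries, and the log2 difference was 0.27 (95% interval -0.26 to 0.80, limma adjusted p = 0.772), falling to 0.03 after GC and length correction. Dnmt3b, the other de novo enzyme (NCBI gene 13436, chr2:153649411-153687730), measured 0.930, 0.466 and 0.919 FPKM in controls and 0.625, 1.12 and 1.23 FPKM with aminophylline. It rested on 38 to 217 reads per library and was left untested by the filter. Without the filter its log2 difference was 0.17 (95% interval -0.34 to 0.67).

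Dnmt1 took a larger share of the summed Dnmt FPKM in all 3 aminophylline libraries than in any control. This comparison was chosen after the values were seen. Its share was 53.2%, 53.8% and 53.3% in controls and 56.0%, 65.1% and 69.0% with aminophylline. The share of Dnmt3l was 43.9%, 44.6% and 44.3% in controls and 42.1%, 32.8% and 28.7% with aminophylline. Dnmt3a made up 1.18 to 1.82% and Dnmt3b 0.379 to 1.08%. These shares depend on the transcript lengths that the authors used. With the longest GENCODE transcript as length, Dnmt3l exceeded Dnmt1 in every control and in aminophylline 1. The ratio of Dnmt3l to Dnmt1 as deposited, chosen likewise, was 0.824, 0.830 and 0.832 in controls. It was 0.752, 0.504 and 0.416 with aminophylline, a log2 difference of -0.62. The groups did not overlap, as deposited or after GC and length correction, where the difference was -0.49. After that correction the ratio was 0.768, 0.713 and 0.929 in controls and 0.678, 0.544 and 0.495 with aminophylline. The control SD of the log2 ratio was 0.0069 as deposited and 0.197 after it. Since the ratio was picked for this separation, it is given as a description with no test. As deposited, aminophylline 1 lay only 0.13 below control 1 on the log2 scale.

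**Figure D3:**
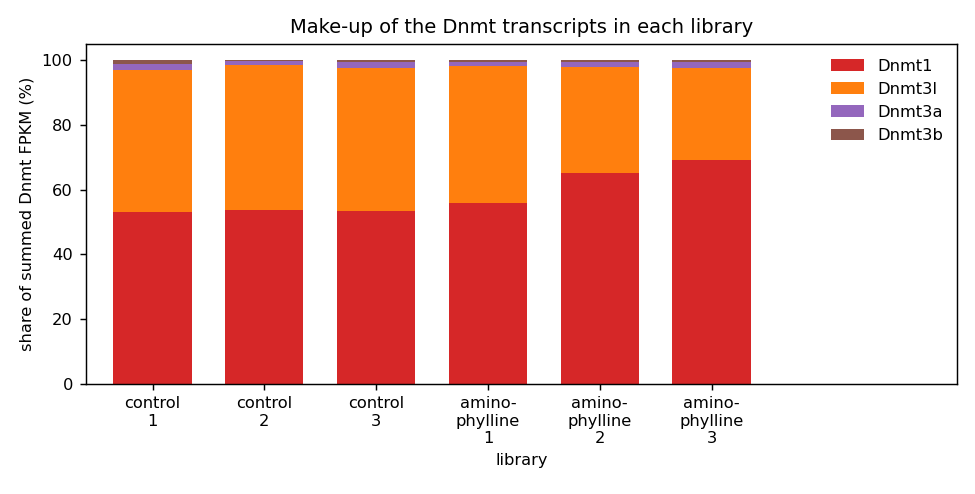
Share of each Dnmt gene in the summed Dnmt FPKM of each library, in percent, as stacked bars. FPKM is as deposited, and the shares depend on the transcript lengths behind it. The Dnmt1 share is 53.2 to 53.8% in controls and 56.0 to 69.0% with aminophylline, and the Dnmt3l share is correspondingly smaller.

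Of the TET enzymes, Tet3 made up 93.7 to 97.4% of the summed Tet FPKM in each library. Tet3 (NCBI gene 194388, chr6:83362373-83457208) measured 14.1, 8.41 and 22.4 FPKM in controls and 11.1, 20.1 and 28.6 FPKM with aminophylline. Aminophylline 1 lay below 2 of the controls. The log2 difference was 0.39 (SE 0.366, 95% interval -0.41 to 1.20, limma adjusted p = 0.781), and 0.12 after GC and length correction. It depended on single libraries, at 0.06 without control 2, 0.10 without aminophylline 3, 0.72 without control 3 and 0.74 without aminophylline 1, and in the last of these it passed an unadjusted p of 0.05. Tet1 (NCBI gene 52463, chr10:62804570-62887469) measured 0.598, 0.258 and 0.414 FPKM in controls and 0.462, 0.465 and 0.506 FPKM with aminophylline. Tet2 (NCBI gene 214133, chr3:133463677-133545136) measured 0.327, 0.218 and 0.236 FPKM in controls and 0.287, 0.336 and 0.248 FPKM with aminophylline. Both stayed under 1 FPKM in all 6 libraries, on 67 to 370 reads for Tet1 and 30 to 107 for Tet2, and their groups overlapped. Without the filter their log2 differences were 0.06 and 0.03.

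Dppa3 (NCBI gene 73708, chr6:122626424-122630271) was by far the most abundant member. It measured 9620, 11563 and 7461 FPKM in controls and 9773, 8791 and 8215 FPKM with aminophylline, on 133486 to 264718 reads. The aminophylline values lay within the control range, with means of 9548 ± 2052 and 8926 ± 788 FPKM. The log2 difference was -0.08 (SE 0.191, 95% interval -0.50 to 0.34, limma adjusted p = 0.925), and without control 2 it was 0.07. The annotation holds a processed pseudogene, Dppa3-ps, with which reads could be shared, so the Dppa3 level is uncertain to that extent. The ratio of Dppa3 to Uhrf1 was 310, 444 and 120 in controls and 241, 164 and 109 with aminophylline. It was lower with aminophylline in 3 of 3 replicate numbers, by 0.15 to 1.44 on the log2 scale. The group difference of -0.65 was within the spread (exact permutation p = 0.4, adjusted p = 0.8 over the 7 ratios planned). The other 6 ratios, Uhrf1 to Dnmt1 among them, had exact permutation p-values of 0.4 to 0.8, with overlapping groups.

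Several members varied together across the 6 libraries, whatever their group. On the log2(FPKM + 1) scale, Dnmt3a and Uhrf1 had a Pearson correlation of 0.996, Tet3 and Uhrf1 0.931 and Dnmt3a and Tet3 0.912. Dppa3 ran opposite to them, with -0.895 against Uhrf1 and -0.909 against Tet3. Control 3 and aminophylline 3 were high for Uhrf1, Dnmt3a and Tet3, and each was the lowest of its group in Dppa3. Dnmt1 followed Uhrf1 less closely, at 0.845, and its lowest library was control 1 where that of Uhrf1 was control 2. After GC and length correction, the correlation of Dnmt3a with Uhrf1 was 0.576 and that with Tet3 0.340, while Tet3 and Uhrf1 had 0.861 and Dppa3 and Uhrf1 -0.924. Dppa3 then had -0.858 with Tet3 but -0.540 with Dnmt3a, and Dnmt1 had 0.525 with Uhrf1. These values describe the same 6 libraries, and before correction 270 of 4066 genes with at least 10 FPKM in both groups correlated with Uhrf1 above 0.9. By the uncorrected measure the closest genes were Mepce for Dnmt1 (0.989), Ell3 for Dnmt3l (0.996), Ddhd1 for Tet3 (0.999) and Uck2 for Dppa3 (0.995).

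**Figure D4:**
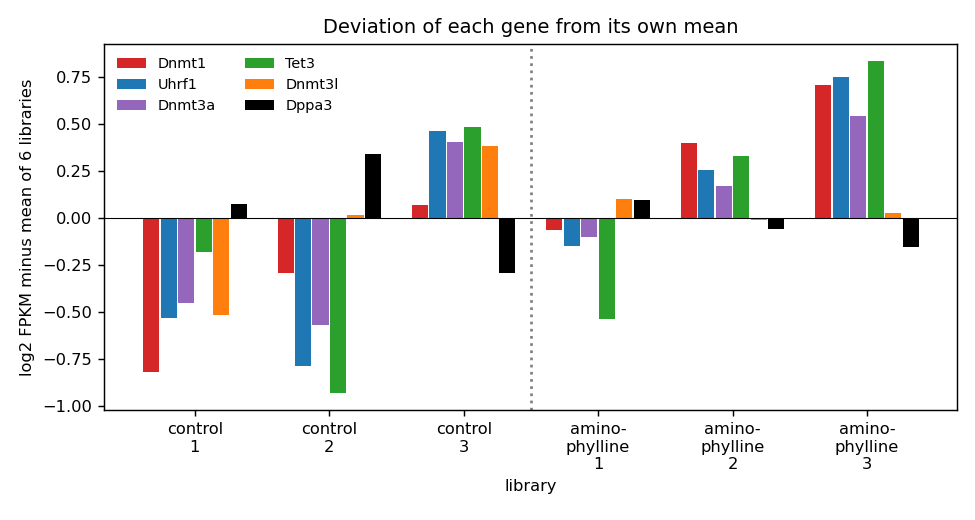
Deviation of each gene's log2 FPKM from its own mean over the 6 libraries, 1 bar per gene and library, controls left of the dotted line. Uhrf1, Dnmt3a and Tet3 deviate in the same direction in all 6 libraries, and Dppa3 deviates in the opposite direction from Uhrf1 in all 6.

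The surrounding pathway was read from 5 gene lists, and no gene of any list passed an adjusted p of 0.05, with or without the block. Over all tested genes, 7.25% were under an unadjusted limma p of 0.05 in either direction, and 4.41% were under it and higher. Of the maintenance partners, 7 of 10 were tested and 0 were under an unadjusted p of 0.05, with a median log2 fold change of -0.02. Pcna, the replication clamp that binds DNMT1 and the most abundant of them, was at 226 ± 10.4 FPKM in controls and 233 ± 11.0 FPKM with aminophylline. Of the factors that guide de novo methylation and imprints, 12 of 14 were tested and their median was 0.36, with 1 higher and 0 lower under the looser threshold. That gene was Kmt2b, a histone H3 lysine methyltransferase, at 1.67, 2.30 and 2.58 FPKM in controls and 2.72, 4.55 and 4.58 FPKM with aminophylline. Its groups did not overlap, with a log2 difference of 0.63 (limma adjusted p = 0.682) that was 0.23 after GC and length correction and then missed the looser threshold. Zfp57, the zinc finger protein that holds imprints and the most abundant of this list, was at 44.6, 31.8 and 41.3 FPKM in controls and 30.2, 28.4 and 29.7 FPKM with aminophylline. All aminophylline libraries lay below all controls, with a log2 difference of -0.39 (limma adjusted p = 0.685) that missed the looser threshold and passed it in 10 of 19 alternatives, among them the block and GC and length correction (difference -0.36). With the block, 5 genes of this list were higher and 1 lower under the looser threshold, against 9.88% of all tested genes that were higher. After GC and length correction together with the block, 0 of these 5 stayed under it, and Zfp57, the lower gene, did.

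Base excision genes, which replace oxidized or deaminated cytosine, had 10 of 16 tested and a median of 0.31. The 1 gene under the looser threshold was lower, beside 7.25% of all tested genes under it in either direction. It was Neil3, a DNA glycosylase and the most abundant of the list. Neil3 measured 269, 142 and 199 FPKM in controls and 128, 118 and 126 FPKM with aminophylline, with no overlap. Its means were 203 ± 63.8 and 124 ± 5.16 FPKM, a log2 difference of -0.66 (SE 0.214, limma adjusted p = 0.664). After GC and length correction it was -0.58, and with the block its limma adjusted p was 0.0901. With the block, 3 base excision genes were higher and 1 lower under the looser threshold, against 9.88% of all tested genes that were higher. The same counts were 1 and 0 for the methyl-CpG readers, 1 and 1 for the methyl donor list and 0 and 0 for the maintenance partners. Of the methyl-CpG readers, 3 of 9 were tested. Mbd3, a subunit of the NuRD complex, was higher under the looser threshold, as were 4.41% of all tested genes. Mbd3 measured 3.17, 3.19 and 5.11 FPKM in controls and 5.63, 6.66 and 7.54 FPKM with aminophylline, a log2 difference of 0.67 (limma adjusted p = 0.682) that was 0.33 after GC and length correction and then missed that threshold. Of the methyl donor and TET cofactor genes, 14 of 17 were tested, with a median of 0.03. Under the looser threshold 1 of them was lower and 0 were higher, beside 7.25% of all tested genes in either direction. Idh1, the cytosolic isocitrate dehydrogenase that makes 2-oxoglutarate, was lower under the looser threshold, at 24.0, 16.4 and 29.0 FPKM in controls and 13.3, 16.0 and 16.6 FPKM with aminophylline (log2 difference -0.53, limma adjusted p = 0.682). Mat2b, the regulatory subunit of methionine adenosyltransferase, was the most abundant gene of that list, at 1000 ± 191 FPKM in controls and 827 ± 48.1 FPKM with aminophylline (log2 difference -0.26).

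**Figure D5:**
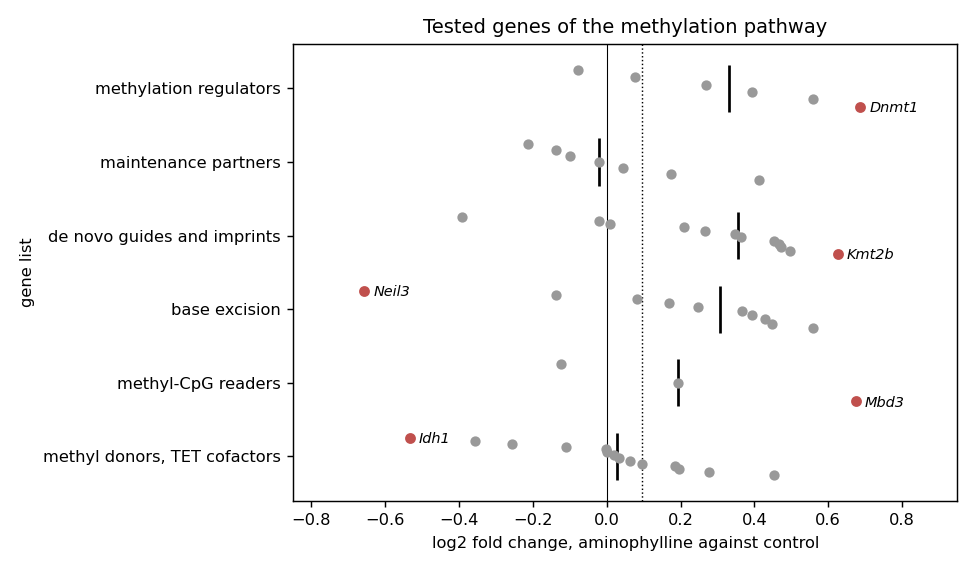
Log2 fold change of each tested gene, aminophylline against control, in the 6 tested members and 5 lists. Bars are list medians, the dotted line is the median of all tested genes and red points are genes at an unadjusted limma p under 0.05, of which none passed adjustment.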

How the data were processed

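RNA of mouse oocytes was sequenced by the authors in 6 libraries, 3 per group, and the deposited values are FPKM per gene on GRCm38 (mm10), with no further scaling stated. The aligner and counter are not given in the sources used here. Groups and replicate numbers came from the labels. Log2(FPKM + 1) values were fitted with limma 3.58.1 in R 4.3.3 with trended moderated variance over 10340 genes at 1 FPKM or more in at least 3 libraries, two-sided, with Benjamini-Hochberg adjustment. Planned ratios within a library were tested by exact permutation, and the order of levels, although planned as a test, is given as counts because it was set from the same libraries. Whole reads were recovered from FPKM ratios between libraries (within 0.01 reads for 100% of 22583 genes above 0 in at least 2 libraries), which gave depth. GC content and length came from the longest GENCODE transcript, found for 91.7% of tested genes, and that correction was chosen after seeing the data.

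Replicate numbers in the labels were checked as a pairing. Deviations from the group means correlated at 0.138, 0.140 and 0.552 between libraries of the same number. Control 2 correlated more with aminophylline 1 (0.423), so the check cannot decide whether equal numbers mark pairs. Blocked values are given as an alternative where they change a call, and they hold only if the numbers do mark pairs. The members and lists were chosen with earlier results of these data known. Named genes were the 9 members, genes of each list at an unadjusted p under 0.05 or with the highest mean, and the closest gene to each tested member, of which some are not reported here. Scripts were tested on simulated data. Alternatives comprised pseudocount, filter, scaling, variance model, weights, block and leaving out each library.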

Additional observations from a re-analysis of the deposited data

How the results depend on the processing

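Across alternatives, the count of genes at an unadjusted p under 0.05 (limma, 750 as reported) was 1404 with no filter, 2011 with library weights, 1467 with the replicate block, 1277 with GC and length correction plus the block and 1304 with median centring plus the block. Leaving out each library in turn gave 329 to 1617 genes. The count at an adjusted p of 0.05 was 47 with the replicate block and 0 under the other settings. The share of these calls that were higher was 60.8% as reported, 49.0% after scaling to a common sum, 39.7% after quantile normalization, 35.9% after median centring and 35.4% after GC and length correction. The count of members, 1 as reported, was 0 with no filter or without moderation and 2 with library weights, the block, GC and length correction plus the block, or median centring plus the block, and leaving out each library gave 0 to 3. It was 0 without control 1, aminophylline 2 or aminophylline 3, 2 without control 3 and 3 without aminophylline 1. Dnmt1 was positive in all 19 alternatives (0.44 to 0.89) and under an unadjusted p of 0.05 in 14 of them.

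The log2 difference of Dnmt3l reversed to -0.0049 under median centring and to -0.058 with GC and length correction, each with and without the block, and it ran from -0.16 (without control 1) to 0.28 when 1 library was left out. That of Dppa3 ran from -0.24 to 0.072, positive only without control 2. Ratio differences with 1 library left out ran from -0.19 to 0.25 for Dnmt3b to Dnmt3a (positive without control 1, and 0.11 without aminophylline 1), from -0.40 to 0.044 for Uhrf1 to Dnmt1 (positive without control 3) and from -0.66 to 0.17 for Tet2 to Tet3 (positive without aminophylline 3). The cause was not tested. Control 2 was the shallowest library, at 0.420 of the depth of control 1, which limits Dnmt3b, Tet1 and Tet2 most.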
